A study of Mus musculus with 29 samples.

Results

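The genes described here are 10 genes that mark the floor plate of the neural tube and the midbrain dopaminergic neurons that arise from it. They were chosen by name (Foxa1, Foxa2, Lmx1a, Lmx1b, Nr4a2, Pitx3, Th, Ddc, Slc6a3 and Aldh1a1) and are 10 of the 25239 genes listed in the 8 RNA count tables of the series. The tables count polyadenylated RNA from dissected brain of mouse embryos at mid-gestation (E11.5). Midbrain was taken from wild-type and hs654 knockout embryos, and forebrain from wild-type and hs267-853 knockout embryos, so that there were 4 groups. Each group holds 2 libraries, and each library pooled several dissected samples. The names hs654 and hs267-853 denote deleted enhancers, and the wild types carry neither deletion. Strain, embryos per pool, whether both alleles were deleted, and whether hs267-853 is 1 deletion or 2 are not given in the sources used here. The comparisons ask which genes change when an enhancer is absent, and the wild types of both tissues show where the genes are normally transcribed. Chromatin contact maps, the other 21 samples of the series, were not used.

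The floor plate is the ventral midline of the neural tube, which secretes Sonic hedgehog. In the midbrain it is unusual in being neurogenic: its progenitors express the forkhead factors Foxa1 and Foxa2 and the LIM homeodomain factors Lmx1a and Lmx1b, and give rise to dopaminergic neurons. Newborn neurons switch on the nuclear receptor Nr4a2 (Nurr1) and then the homeodomain factor Pitx3. Dopamine is made from tyrosine by tyrosine hydroxylase (Th) and aromatic L-amino acid decarboxylase (Ddc), and the transporter Slc6a3 takes it back up in mature neurons. Aldh1a1, a retinaldehyde dehydrogenase, marks a subset of the lineage. Several of these genes also act elsewhere: Lmx1a in the roof plate and cortical hem, Lmx1b in head mesenchyme, Ddc in serotonergic and noradrenergic neurons, and Th in other catecholaminergic neurons.

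Total gene counts ran from 9051632 to 18024406 per library, and levels below are CPM, counts scaled to a common library size with TMM factors. A count of 0 allows up to 3 counts, which is 0.170 CPM in the deepest library and 0.328 CPM in the shallowest. This floor and the counting intervals below cover counting error only. One library stood apart from the other 7 on the second principal component, hs267-853 knockout forebrain replicate 1, and the results that rest on it are given with and without it. The deletions remove enhancers, so no gene's own counts serve as a check of the genotype labels. Of the 10 genes, 8 had enough counts to be tested among 15383 genes, while Pitx3 and Slc6a3 did not. Foxa2 and Aldh1a1 met the filter on low counts through their midbrain libraries alone, so a difference between tissues was built into their passing. Nothing in the labels says whether the 2 pools of a group came from separate litters, and p-values measure only the spread between those pools. In pooled tissue, fewer cells of a type and less RNA per cell cannot be told apart.

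The sequences before the transcription start of 3 members are shown because their levels took different courses between tissues: Foxa2 and Ddc were lower in forebrain and Th was not. They are the 250 bases before the start in RefSeq's promoter table of build GRCm38.p6, the assembly also called mm10, which the submitters' processing notes name. All 10 genes matched a promoter window. Capitals mark matches to the motifs named below, and the sequence of Foxa2 has none.
Foxa2: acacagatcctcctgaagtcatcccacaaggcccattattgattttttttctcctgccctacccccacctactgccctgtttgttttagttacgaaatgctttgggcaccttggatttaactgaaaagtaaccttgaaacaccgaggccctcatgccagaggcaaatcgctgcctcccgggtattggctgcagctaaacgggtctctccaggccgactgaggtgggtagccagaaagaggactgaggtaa
Ddc: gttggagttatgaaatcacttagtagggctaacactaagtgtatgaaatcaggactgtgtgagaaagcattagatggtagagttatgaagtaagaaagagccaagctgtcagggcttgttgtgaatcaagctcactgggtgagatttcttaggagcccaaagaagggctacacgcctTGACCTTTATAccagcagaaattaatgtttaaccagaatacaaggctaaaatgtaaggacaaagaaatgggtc
Th: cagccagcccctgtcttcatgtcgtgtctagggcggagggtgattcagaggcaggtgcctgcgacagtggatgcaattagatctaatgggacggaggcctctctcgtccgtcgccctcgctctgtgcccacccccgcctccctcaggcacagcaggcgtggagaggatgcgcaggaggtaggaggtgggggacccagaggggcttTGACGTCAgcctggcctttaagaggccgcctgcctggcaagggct
These lie on the minus strand at chr2:148046970-148047219, chr11:11898145-11898394 and chr7:142899996-142900245, and each run is written 5′ to 3′ toward its gene. The genes themselves, all protein-coding, span chr2:148042877-148046969 (Foxa2), chr11:11814101-11898144 (Ddc) and chr7:142892779-142899995 (Th). Of the other members, all protein-coding too, Lmx1a spans chr1:167688230-167848741, Lmx1b chr2:33560965-33641208, Nr4a2 chr2:57106830-57124003 and Foxa1 chr12:57540628-57548029. Slc6a3 spans chr13:73536128-73578672, Aldh1a1 chr19:20492583-20643463 and Pitx3 chr19:46135281-46148325.

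Both strands of these windows were searched for 6 motifs, as were those of all 27025 genes in the table. For Foxa1, Lmx1a and Slc6a3 the window lay inside the gene span given above, before an inner start, and for Lmx1b partly so. The cyclic AMP response element TGACGTCA was found in Th, 45 to 38 bases before the start, and in 1.6% of all windows. The monomer site of Nr4a2, AAAGGTCA, was found in Ddc on the reverse strand, 73 to 66 bases before the start, and in 1.31% of all windows. It shares bases there with a reverse-strand match of TATAAA, which 13% of windows hold and which also matched in Nr4a2. The forkhead core TGTTTAC matched in 1 of the 10 genes, Foxa1, against 3.06% of all windows. The homeodomain core TAATTA (4.91% of all windows) and the Gli site GACCACCCA (0.207%) matched in none of the 10, which says only that these letters are not in these windows.

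**Figure D1:**
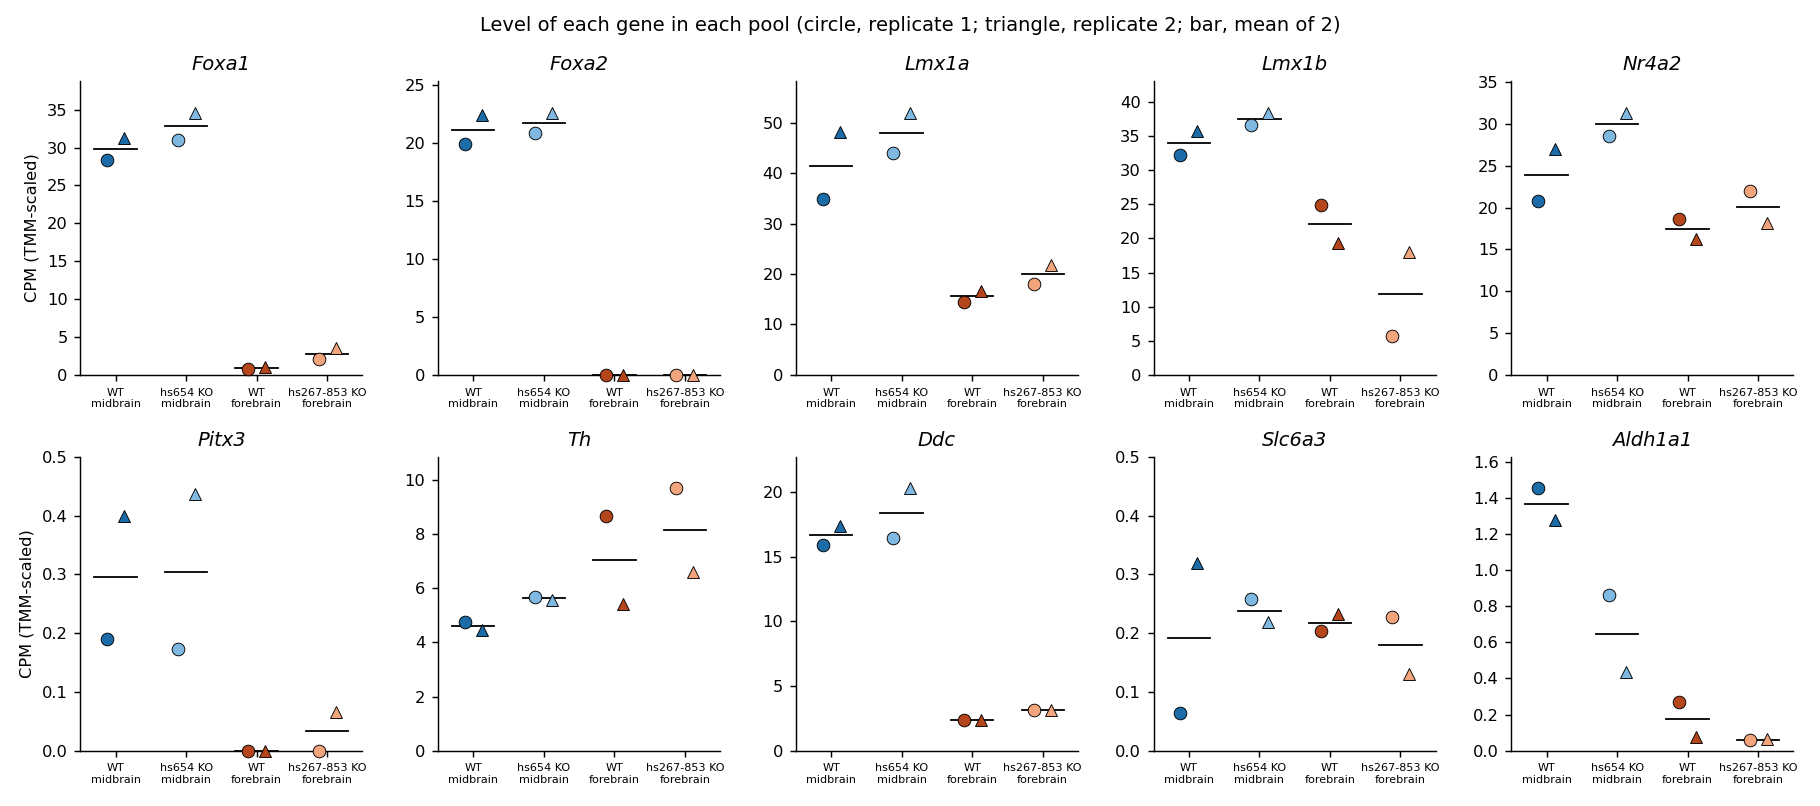
Level of each of the 10 genes (vertical axis, TMM-scaled CPM, each panel with its own scale from 0) in the 8 pools, grouped by tissue and genotype on the horizontal axis. Circles are replicate 1, triangles replicate 2 and bars the mean of 2; Foxa2 stood at 0 in all 4 forebrain pools, and Th was the tested gene with higher means in forebrain.

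Foxa1 and Foxa2, pioneer transcription factors that specify the floor plate and maintain dopaminergic neurons, had the largest fold differences between tissues among the 8 tested genes. Foxa2 measured 19.9 and 22.4 CPM in wild-type midbrain and 20.8 and 22.6 CPM in hs654 knockout midbrain, from 207 to 315 counts per library. It had 0 counts in each of the 4 forebrain libraries. With forebrain at its floor of 3 counts per library, Foxa2 was at least 97.0-fold lower in wild-type forebrain than in wild-type midbrain, and at least 118-fold lower between the knockout tissues. In edgeR's quasi-likelihood test, with p-values adjusted over all genes tested, Foxa2 had an adjusted p of 2.57e-08 and 2.03e-08 there.

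Foxa1 was also low in forebrain but was detected in every library. It measured 28.4 and 31.3 CPM in wild-type midbrain, 31.1 and 34.6 CPM in hs654 knockout midbrain, 0.814 and 1.08 CPM in wild-type forebrain, and 2.10 and 3.54 CPM in hs267-853 knockout forebrain. The midbrain libraries of both genotypes overlapped, and all forebrain libraries lay far below them. The log2 fold change of forebrain against midbrain was -4.97 (SE 0.243) in wild type, 31.4-fold lower (edgeR adjusted p 1.06e-08). It was 11.8-fold lower in forebrain of the knockouts. Foxa1 overlaps Ttc6 in the RefSeq table, and whether counting used the read strand is not given in the sources used here. Ttc6 measured 7.23 to 8.87 CPM in midbrain and 0.339 to 0.786 CPM in forebrain.

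Lmx1a and Lmx1b, paralogous factors that act upstream of Nr4a2 and Pitx3, were present in both tissues. Lmx1a measured 34.8 and 48.1 CPM in wild-type midbrain, 44.1 and 52.0 CPM in knockout midbrain, 14.5 and 16.7 CPM in wild-type forebrain, and 18.1 and 21.8 CPM in knockout forebrain. Each forebrain library lay below each midbrain library. In wild type the log2 fold change was -1.41 (SE 0.164), 2.65-fold lower in forebrain (edgeR adjusted p 3.11e-05). Among the knockouts Lmx1a was 2.41-fold lower in forebrain (edgeR adjusted p 6.18e-05).

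Lmx1b measured 32.2 and 35.8 CPM in wild-type midbrain, 36.6 and 38.5 CPM in knockout midbrain, and 24.9 and 19.3 CPM in wild-type forebrain. In knockout forebrain it was 5.73 CPM in replicate 1 and 18.0 CPM in replicate 2. Its tissue difference in wild type, -0.61 (SE 0.305) on the log2 scale, did not pass the threshold (edgeR adjusted p 0.154). Its 95% interval ran from -1.27 to 0.048. With the 4 wild-type libraries fitted alone, or without a filter on low counts, it passed, at 0.00413 and 3.33e-05. Among the knockouts Lmx1b differed by -1.68 (SE 0.325; edgeR adjusted p 0.00166). Without knockout forebrain replicate 1 it was -1.05, still past the threshold. Without replicate 2 it was -2.70. The lncRNA gene C130021I20Rik overlaps Lmx1b in the RefSeq table, so reads of the pair may not be separable.

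Nr4a2, the orphan nuclear receptor needed for dopaminergic identity, differed little between tissues. It measured 20.8 and 27.0 CPM in wild-type midbrain, 28.6 and 31.4 CPM in knockout midbrain, 18.7 and 16.3 CPM in wild-type forebrain, and 22.0 and 18.1 CPM in knockout forebrain. In wild type it was 1.36-fold lower in forebrain, a log2 fold change of -0.44 (SE 0.152; edgeR adjusted p 0.0426). That call did not hold with the replicate number as a block (adjusted p 0.0504), in DESeq2 (0.0622) or in limma-voom (0.0603). It was also lost without wild-type midbrain replicate 2 (log2 fold change -0.25), without wild-type forebrain replicate 1 (-0.55) and without wild-type forebrain replicate 2 (-0.35). In the knockout libraries Nr4a2 was 1.49-fold lower in forebrain (edgeR adjusted p 0.0107). That call was lost without hs654 knockout midbrain replicate 2, at 0.0960, and without hs267-853 knockout forebrain replicate 2, at 0.0590.

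Pitx3, which maintains dopaminergic neurons of the substantia nigra, was almost undetected at this stage. It had 3 and 5 counts in the wild-type midbrain libraries and 2 and 4 in the knockout midbrain libraries, 0.172 to 0.437 CPM. In forebrain it had 0 counts in 3 libraries and 1 count in hs267-853 knockout replicate 2. With wild-type forebrain at its floor, Pitx3 was at least 1.35-fold lower there than in wild-type midbrain. Between the knockout tissues the ratio of midbrain to forebrain, 6 counts against 1, was 9.50 with an exact 95% counting interval of 1.15 to 437. In an edgeR fit without a filter on low counts, apart from the main test, neither difference of Pitx3 passed the threshold. The adjusted p there was 0.136 in wild type and 0.305 between the knockout tissues.

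Of the enzymes of dopamine synthesis, Ddc was lower in forebrain and Th did not pass the test. Ddc measured 15.9 and 17.4 CPM in wild-type midbrain, 16.4 and 20.3 CPM in knockout midbrain, 2.38 and 2.40 CPM in wild-type forebrain, and 3.12 and 3.14 CPM in knockout forebrain. The forebrain libraries all lay below the midbrain libraries. Ddc was 6.96-fold lower in wild-type forebrain (log2 fold change -2.80, SE 0.197; edgeR adjusted p 2.85e-07). In the knockouts it was 5.83-fold lower.

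Th, the rate-limiting enzyme, had its higher means in forebrain. It measured 4.74 and 4.47 CPM in wild-type midbrain and 5.68 and 5.57 CPM in knockout midbrain. In forebrain it had 8.69 and 5.42 CPM without the deletion and 9.70 and 6.61 CPM in hs267-853 knockouts. Within each genotype the forebrain libraries lay above the midbrain libraries, but wild-type forebrain replicate 2 lay below both knockout midbrain libraries. The log2 fold change of forebrain against midbrain was 0.62 (95% interval 0.041 to 1.20) in wild type and 0.54 (-0.031 to 1.11) in knockout. Neither passed the threshold, edgeR giving adjusted p of 0.101 and 0.148. In wild type the value was 0.91 (edgeR adjusted p 0.0380) without forebrain replicate 2, and 0.23 without forebrain replicate 1. Without a filter on low counts the wild-type difference also passed, at 0.0368. In the knockouts it was 0.79 (adjusted p 0.0394) without forebrain replicate 2 and 0.23 without forebrain replicate 1.

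Slc6a3, the dopamine transporter, had 1 to 4 counts in each of the 8 libraries, and every group mean (0.179 to 0.238 CPM) was at or below what a count of 0 allows, so no fold is given. Aldh1a1 was low but present in midbrain. It had 23 and 16 counts (1.45 and 1.28 CPM) in wild-type midbrain, 10 and 4 counts (0.860 and 0.437 CPM) in knockout midbrain, 4 and 1 counts in wild-type forebrain, and 1 count in each knockout forebrain library. Wild-type midbrain exceeded wild-type forebrain by a count ratio of 7.61 (exact 95% counting interval 3.00 to 24.8; edgeR adjusted p 0.00722). Between the knockout tissues the ratio was 11.1 (2.55 to 100.5; edgeR adjusted p 0.0180). Both calls were lost when single libraries were left out: the first without midbrain replicate 1 (adjusted p 0.0568) or forebrain replicate 2 (0.0805), the second without midbrain replicate 1 (0.182), forebrain replicate 1 (0.0818) or forebrain replicate 2 (0.0625). In DESeq2 the second had an adjusted p of 0.0552. The wild-type log2 fold change was -2.87 with all libraries, -2.77 without midbrain replicate 1, -2.30 without forebrain replicate 2 and -3.99 without forebrain replicate 1. That of the knockouts was -3.27 with all libraries and -2.69 without midbrain replicate 1.

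In all, 6 of the 10 genes were past the threshold and lower in wild-type forebrain (Foxa1, Foxa2, Lmx1a, Nr4a2, Ddc and Aldh1a1), where 15.3% of all genes tested were lower and past it and 14.3% higher. The other 2 tested genes, Lmx1b and Th, were not past it, and Pitx3 and Slc6a3 were not tested. Foxa2 and Aldh1a1 are counted here and in the tallies below. Both met the filter on low counts through midbrain alone, so a tissue difference was built into their being tested. In the knockouts 7 of the 10 were lower and past the threshold, the same 6 and Lmx1b, against 14.8% of all genes tested (14.6% were higher and past it). For 7 of the 8 tested members, and for the untested Pitx3, all forebrain libraries lay below the midbrain libraries of the same genotype, in wild type and in the knockouts alike, and for Th they lay above. Groups did not overlap in either direction for 65.9% of all genes in wild type and 64.4% in the knockouts. The knockout comparison shares no library with that of the wild types, and in it the deletions differ together with the tissue.

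**Figure D2:**
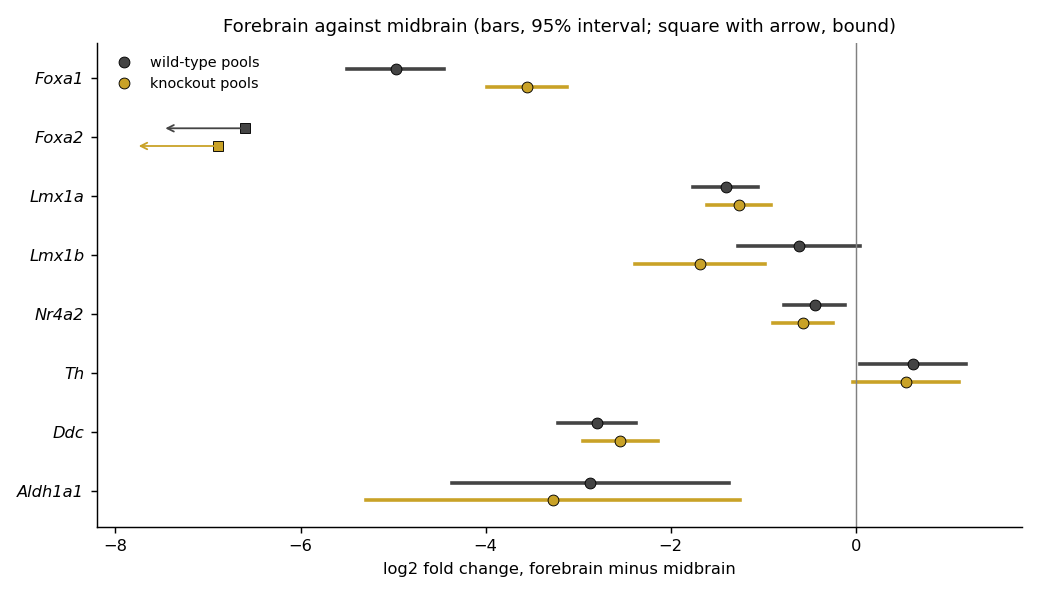
Log2 fold change of forebrain against midbrain (horizontal axis) for the 8 tested genes, in wild-type pools (grey) and knockout pools (yellow), with 95% intervals from the edgeR fit as bars. Squares with arrows are bounds for Foxa2, which had 0 counts in forebrain; Th lies to the right of 0 and the other genes to the left.

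Other genes of the lineage were followed as lists that do not include the 10 genes. Of 7 floor plate genes, all were tested, and 6 were lower and 1 higher in wild-type forebrain past the threshold (median log2 fold change -1.67, against 0.0012 over all genes tested). Shh, the floor plate morphogen, measured 52.6 ± 5.20 CPM in wild-type midbrain and 4.11 ± 1.30 CPM in wild-type forebrain (SD, n = 2), a log2 fold change of -3.69. Spon1, which encodes the floor plate protein F-spondin, had 114 ± 0.625 CPM in midbrain and 4.08 ± 1.45 CPM in forebrain, and Ferd3l, a bHLH gene of the floor plate, 5.91 ± 0.121 and 0.417 ± 0.370 CPM (SD, n = 2). Shh, Spon1 and Ferd3l were above the floor in midbrain. Of the 10 genes described, Slc6a3 and Pitx3 were at or near it there, and the others, Ddc and Th among them, were above it. Shh is named beside the rule for named genes, as the defining gene of its list, as are Slc18a2 and Dbh below.

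Of 12 genes that specify the dopaminergic progenitor domain, all tested, 7 were lower and 3 higher in wild-type forebrain past the threshold, with a median log2 fold change of -1.18. En2, a midbrain-hindbrain homeobox gene, had 144 ± 19.8 CPM in midbrain (SD, n = 2) and 0 counts in forebrain, at least 662-fold lower. Wnt1 had 16.1 ± 1.00 CPM in midbrain and 0.552 ± 0.205 CPM in forebrain. Sox6 and Msx1 were higher in forebrain, by 1.74 and 1.49 on the log2 scale. Both are also transcribed in other forebrain cells, whose part in these values was not tested. Of 12 genes of dopaminergic differentiation and function, 11 were tested, and 5 were lower and 2 higher in wild-type forebrain (median -0.18). Sncg (gamma-synuclein) and Ret (the receptor of GDNF family ligands) were lower, by -4.65 and -3.58 on the log2 scale. Ptpru, a receptor phosphatase, and Dlk1, a Nr4a2 target, were higher, by 1.89 and 0.60. Slc18a2, the vesicular monoamine transporter, measured 16.8 ± 0.760 CPM in midbrain and 18.4 ± 3.51 CPM in forebrain and was not past the threshold (edgeR adjusted p 0.574).

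Between the knockout tissues the same lists gave 5 lower and 1 higher of 7 floor plate genes, 7 lower and 4 higher of 12 specification genes, and 3 lower and 2 higher of 11 tested differentiation genes. Their medians were -1.96, -1.08 and -0.10, beside 0.017 over all genes tested.

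**Figure D3:**
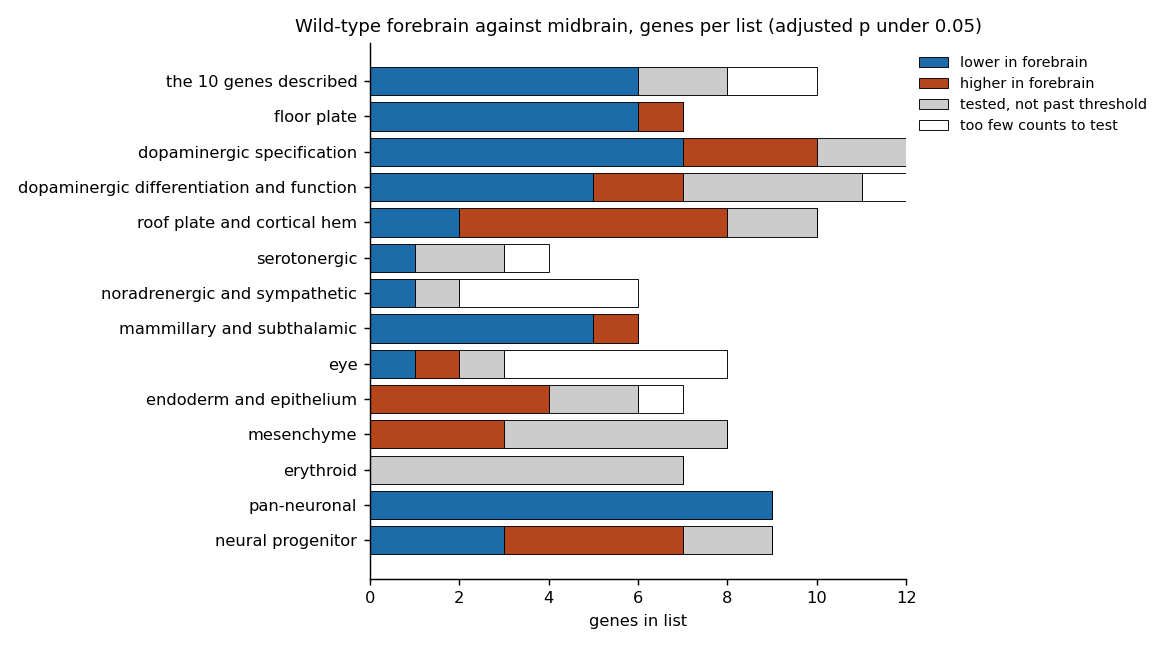
Number of genes of each list (horizontal axis) that were lower or higher in wild-type forebrain than in wild-type midbrain at an adjusted p under 0.05, tested without passing, or too low to test. Floor plate and pan-neuronal genes were mostly or all lower in forebrain, and roof plate and cortical hem genes mostly higher.

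Markers of other cells that use members of the set were measured in the same libraries. The 4 serotonergic markers summed to 0.542 to 3.60 CPM per library, and the 6 noradrenergic and sympathetic markers to 2.97 to 5.27 CPM in midbrain and 0.619 to 1.53 CPM in forebrain. Tph2, which defines serotonergic neurons, had 0 counts in 4 of the 8 libraries and at most 14. Dbh, which defines noradrenergic neurons, had 1 to 11 counts. Of the 10 roof plate and cortical hem genes, 6 were higher and 2 lower in wild-type forebrain past the threshold. The 10 summed to 434 to 592 CPM in forebrain and 305 to 345 CPM in midbrain. Lmx1a itself was higher in midbrain. So were the 2 list genes lower in forebrain, Gdf7 (mean 5.54 CPM in wild-type midbrain, 1.99 CPM in wild-type forebrain) and Wls (205 and 127 CPM). The part of roof plate cells in the Lmx1a difference was not tested. All 9 pan-neuronal genes were lower in wild-type forebrain past the threshold (median -1.47), and their summed level was 1139 to 1632 CPM in forebrain and 2820 to 3192 CPM in midbrain. The part of neuron number in the differences of Ddc and Th was not tested.

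The genes with levels most like 3 of the members were found by Pearson's r of log2 CPM over the 8 libraries, among 14314 other genes, as a description. The libraries form 2 clusters by tissue, and r follows that difference. For Foxa2 these were En2 (r = 0.9999), Cnpy1 (0.999) and Shisal1 (0.999), and 963 genes exceeded 0.95. For Lmx1a they were Tox2 (0.995), Grin3a (0.994) and Cstf2t (0.992), with 317 genes over 0.95. For Th they were Reps1 (0.996), Slc3a2 (0.989) and Mtln (0.972), and only 8 genes exceeded 0.95.

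The hs654 knockout was compared with wild type in midbrain. None of the 8 tested members passed in the edgeR fit (0 of 8, beside 0.00% of all genes tested), nor did any in DESeq2 or limma-voom. At an unadjusted p under 0.05 there was 1 member, Nr4a2, beside 3.96% of all genes. Both knockout libraries lay above both wild-type libraries for Lmx1b, Nr4a2 and Th and below them for Aldh1a1, 4 of 8 beside 36.7% of all genes tested. Nr4a2 was 1.26-fold higher, a log2 fold change of 0.33 (95% interval 0.0073 to 0.65), and 0.15 without wild-type midbrain replicate 1. Th was higher by 0.29 (-0.32 to 0.90) and Lmx1a by 0.22 (-0.11 to 0.55). Foxa1, Foxa2, Lmx1b and Ddc had values from 0.039 to 0.14, and the intervals of Foxa1, Foxa2 and Ddc ended at or below 0.48, while that of Lmx1b ran from -0.51 to 0.79. Aldh1a1 was lower, by -1.03 on the log2 scale (-2.29 to 0.23), from 39 counts in wild type to 14 in the knockout. It was -1.62 without knockout midbrain replicate 1 and -0.67 without replicate 2. The adjusted p of these 8 genes was 0.992 to 0.994 in edgeR's quasi-likelihood test.

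Of the 31 genes of the floor plate, specification and differentiation lists 30 were tested, and 0 passed the threshold in edgeR in midbrain or at an unadjusted p under 0.05 (list medians 0.064, -0.0070 and 0.022). The 7 erythroid markers were all lower in knockout midbrain (summed level 6222 and 3280 CPM in the wild types, then 3470 and 3065 CPM), and the 9 pan-neuronal markers all higher (2950 and 2820 CPM in the wild types, then 3100 and 3192 CPM), none past the threshold. Their part in the values above was not tested.

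**Figure D4:**
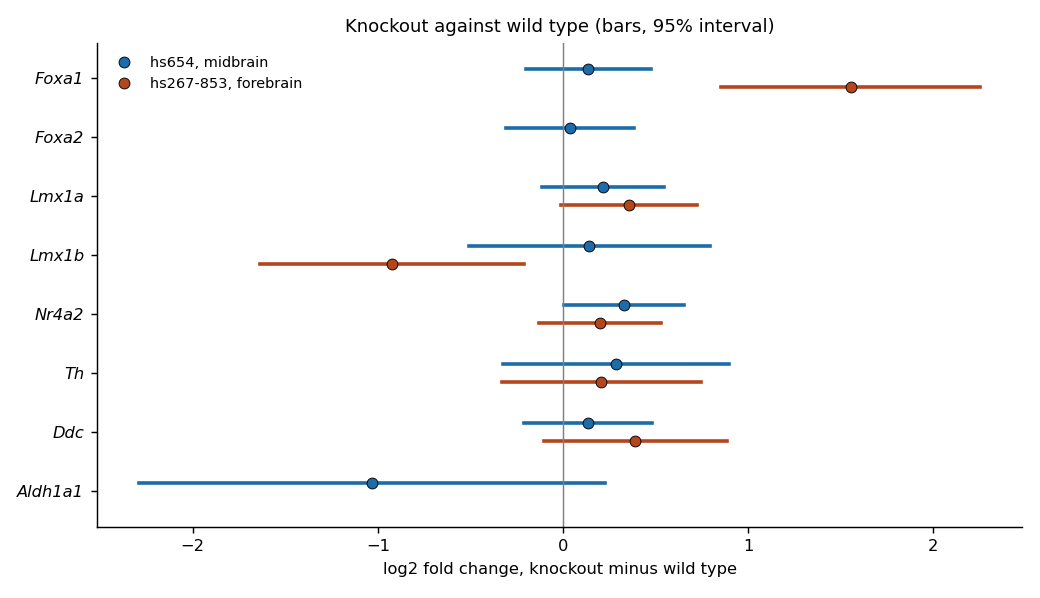
Log2 fold change of knockout against wild type (horizontal axis) in midbrain (hs654, blue) and forebrain (hs267-853, red), with 95% intervals from the edgeR fit as bars. In forebrain Foxa1 lies highest, at 1.55, and Lmx1b lowest, at -0.93; Foxa2 and Aldh1a1 have no forebrain value because both forebrain groups were at or below the floor.

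In forebrain the hs267-853 knockout was compared with wild type for the 6 members with a level above the floor. None passed in the edgeR fit (0 of 6, beside 0.0130% of all genes tested). In DESeq2 1 did, Foxa1, and in limma-voom 0 did. At an unadjusted p under 0.05 there were 2 members, Foxa1 and Lmx1b, beside 4.78% of all genes. Among the 8 tested members the knockout libraries lay above both wild-type libraries for Foxa1, Lmx1a and Ddc and below them for Lmx1b and Aldh1a1, beside 31.1% of all genes tested. Aldh1a1 was below the floor in both groups, with 4 and 1 counts in wild type and 1 in each knockout library. At equal counts of 1, its order against wild-type replicate 2 follows library depth alone.

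Foxa1 was higher in knockout forebrain but not past the threshold. It had 12 and 14 counts in wild-type forebrain and 37 and 54 counts in the knockout, 0.949 ± 0.190 against 2.82 ± 1.02 CPM (SD, n = 2). This is 2.94-fold, or 1.55 (SE 0.323, 95% interval 0.86 to 2.25) on the log2 scale (edgeR unadjusted p 0.000358, adjusted p 0.275). The adjusted p was 0.0338 in DESeq2, 0.799 in limma-voom, and 0.000183 in edgeR without a filter on low counts. Without knockout forebrain replicate 1 the value was 1.90, past the threshold (0.0344), and without replicate 2 it was 1.15. Even in the knockout, Foxa1 in forebrain stayed 11.8-fold below knockout midbrain, and Foxa2, its paralogue, had 0 counts.

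Genes of the mammillary and subthalamic list, a hypothalamic region where Foxa1 and Lmx1 genes are also transcribed, are given beside Foxa1, named after their values were seen. Foxb1 measured 1.56 and 1.93 CPM in wild-type forebrain and 3.80 and 6.02 CPM in the knockout (log2 fold change 1.48, edgeR adjusted p 0.237). Barhl2 measured 13.4 and 15.4 CPM in the wild types against 22.9 and 21.2 CPM in the knockouts (0.62, edgeR adjusted p 0.351). Of the 6 genes 3 had higher and 2 lower values in the knockout, and 1 had no fold. The third with a higher value, Sim1, had 1.29 and 1.86 CPM in the wild types and, in knockout replicates 1 and 2, 5.16 and 1.38 CPM. The 2 lower ones were Nkx2-1, by -0.20 on the log2 scale, and Barhl1, with 4 and 3 counts in the wild types and 2 in each knockout library. The summed level of all 6 genes was 40.8 and 48.4 CPM in the wild types against 57.3 and 49.6 CPM in the knockouts. Whether the share of such cells in the pools bears on Foxa1 was not tested.

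Lmx1b was lower in knockout forebrain, with means of 22.1 ± 3.93 and, in the knockout, 11.9 ± 8.68 CPM (SD, n = 2), and the difference rested on 1 library. The log2 fold change was -0.93 (95% interval -1.64 to -0.21; edgeR unadjusted p 0.0151, adjusted p 0.984). It was -0.30 without knockout replicate 1, and -1.95 with an adjusted p of 6.47e-05 without knockout replicate 2. Without a filter on low counts its adjusted p was 5.92e-08. C130021I20Rik, the overlapping gene, took the same course, at 27.2 and 20.9 CPM in wild-type forebrain and 8.74 and 24.5 CPM in knockout replicates 1 and 2.

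In that same knockout library, 7 of 8 mesenchyme markers were the lowest of the 4 forebrain libraries. Their summed level was 727 CPM there, against 1185 CPM in knockout replicate 2 and 1371 and 1046 CPM in wild type. The 7 endoderm and epithelium markers summed to 22.1 CPM there and 47.2 to 64.0 CPM in the other 3 forebrain libraries. No defining mesenchyme marker was at 0 in any library. In knockout forebrain replicate 1, 9 of 9 pan-neuronal and 7 of 9 neural progenitor markers were the highest of the 4 forebrain libraries. The midbrain libraries had mesenchyme sums of 800 to 1138 CPM and 32.2 to 38.5 CPM of Lmx1b, more Lmx1b than any forebrain library. The part of mesenchyme in the Lmx1b value was not tested.

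**Figure D5:**
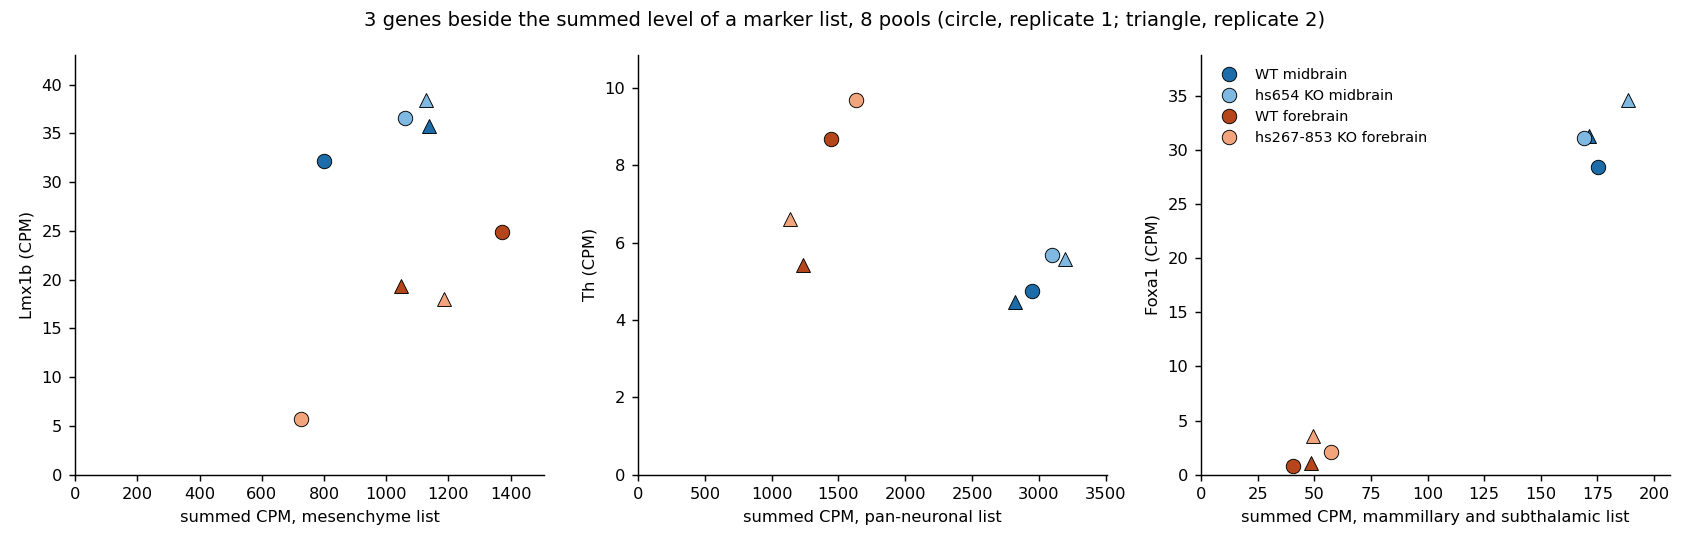
Level of Lmx1b, Th and Foxa1 (vertical axes, CPM) beside the summed level of the mesenchyme, pan-neuronal and mammillary and subthalamic lists (horizontal axes, CPM) in the 8 pools. The pool with the least Lmx1b, hs267-853 knockout forebrain replicate 1 at 5.73 CPM, also had the lowest mesenchyme sum. Wild-type midbrain replicate 1 had the next lowest mesenchyme sum, 800 CPM, with 32.2 CPM of Lmx1b. The 2 forebrain pools with most Th had the highest pan-neuronal sums of the forebrain, while the midbrain pools had higher pan-neuronal sums and lower Th means.

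The other members moved less in knockout forebrain. Lmx1a was higher by 0.36 on the log2 scale (95% interval -0.011 to 0.72), Ddc by 0.39 (-0.10 to 0.89), Nr4a2 by 0.20 (-0.13 to 0.53) and Th by 0.21 (-0.33 to 0.75). Their adjusted p was 0.984 to 0.990 in edgeR's quasi-likelihood test. Ddc had nearly the same value within each genotype, so its libraries did not overlap although its counts were only 35 and 31 in wild type and 55 and 48 in the knockout. Th varied more between replicates than between genotypes. Its highest forebrain levels were 9.70 CPM in knockout replicate 1 and 8.69 CPM in wild-type replicate 1. The same libraries had the highest pan-neuronal sums of the forebrain, 1632 and 1445 CPM. Midbrain libraries had higher pan-neuronal sums, 2820 to 3192 CPM, and lower Th means. The part of neuron number in the Th values was not tested. Of the 30 tested lineage genes 0 passed the threshold in edgeR, with 8 at an unadjusted p under 0.05, where 4.78% of all genes were (list medians 0.044, 0.026 and 0.088). En2, 1 of the 30, had 0 counts in all 4 forebrain libraries and no value.

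The difference between both knockout effects, midbrain minus forebrain, was tested for the same 6 members. None passed in the edgeR fit (0 of 6, beside 0.00650% of all genes tested), nor in DESeq2 or limma-voom. There were 2 at an unadjusted p under 0.05, beside 4.02% of all genes: Foxa1, with a difference of -1.42 (95% interval -2.20 to -0.63), and Lmx1b, with 1.07 (0.10 to 2.03). Without knockout forebrain replicate 1 the difference of Lmx1b was 0.44, and without replicate 2 it was 2.09 (edgeR adjusted p 0.000309). The differences of Lmx1a, Nr4a2, Th and Ddc were -0.14, 0.13, 0.078 and -0.25, with intervals that reached from -0.86 to 0.89 among them.

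Ordered by group mean, both midbrain groups came before both forebrain groups for 8 of the 10 genes, Foxa1, Foxa2, Lmx1a, Lmx1b, Nr4a2, Pitx3, Ddc and Aldh1a1. Pitx3 had at most 5 counts in any library. The share of all genes with such an order was not counted. Over all genes tested, the tissues did not overlap in either direction for 65.9% in wild type and 64.4% in the knockouts. Within midbrain the genotypes overlapped for Foxa1, Foxa2, Lmx1a, Pitx3, Ddc and Slc6a3. Within forebrain they overlapped for Nr4a2, Th, Pitx3 and Slc6a3. There Foxa2 was at 0 and Aldh1a1 below the floor in both genotypes. Nr4a2 was the case in which a midbrain group, the wild type, also overlapped a forebrain group, the knockout, among these 8 genes. For Th the order was knockout forebrain, wild-type forebrain, knockout midbrain and wild-type midbrain. Slc6a3 had no order beyond its counting error.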

How the data were processed

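Raw counts per gene symbol were deposited by the authors, 1 table per library, without normalization. STAR, HTSeq, DESeq2 and build mm10 appear in the submitters' processing notes with no version or role. Annotation and strand setting are not given in the sources used here. The 5 rows that name no gene were left out; genes held 40.7% to 44.1% of the reads listed as in a gene, in no feature or ambiguous.

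All 8 libraries were fitted together with edgeR 4.0.16 in R 4.3.3 (filterByExpr, TMM factors of 0.978 to 1.01, quasi-likelihood F test, two-sided, 1 mean per group), with Benjamini-Hochberg adjustment over 15383 genes and a threshold of 0.05. A fold change and its F gave each standard error, and 12.7 degrees of freedom each 95% interval. Log2 CPM had a prior count of 2. Floors were 3 counts per library, averaged over a group, and 2 groups at or below their floors got no fold. Simulated data with known changes were used to test the procedure. Replicates were not duplicates of each other (chi-square over degrees of freedom 3.75 to 7.74 for genes with at least 10 counts).

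Members and lists were chosen with earlier results of these data known. From each list, up to 2 risers and 2 fallers between wild-type tissues (past the threshold, mean of at least 1 CPM, largest change) and defining markers at 0 counts could be named; others are marked, and some genes the rule selects are not reported here. Tried besides: RLE and upper-quartile scaling; no filter, or at least 50 counts on average; DESeq2 1.42.0; limma-voom (limma 3.58.1); a minimum change of 1.5-fold; only the libraries compared; a replicate block; and 1 library omitted at a time.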

Additional observations from a re-analysis of the deposited data

How the results depend on the processing

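Of 482 values of single members under the alternatives, 442 kept their direction and their side of the threshold, 17 lost and 13 gained significance, and 10 changed sign, all 10 with 1 library left out and for effects not past the threshold. With 1 library left out, the hs654 effect ranged from -0.041 to 0.12 for Foxa2, from -0.0021 to 0.46 for Lmx1a and from -0.020 to 0.30 for Ddc, and the hs267-853 effect of Th from -0.10 to 0.60. The difference of both effects ranged from -0.36 to 0.10 for Lmx1a, from -0.050 to 0.32 for Nr4a2 and from -0.31 to 0.39 for Th. Foxa1, Foxa2, Lmx1a and Ddc stayed lower in forebrain and past the threshold in both tissue comparisons under every alternative run.

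A minimum change of 1.5-fold lowered the genes called from 4548 to 1086 between wild-type tissues and from 4523 to 1026 between knockout tissues, from 2 to 1 in forebrain and from 1 to 0 for the difference of effects. Without a filter on low counts, 22 genes were called in midbrain, 161 in forebrain and 111 for the difference, with 2 members, Foxa1 and Lmx1b, in forebrain and 2 for the difference. DESeq2 called 13 genes in forebrain, 1 of them a member, and 4 for the difference. Limma-voom called 1 in forebrain, and the 4 libraries alone 1 in midbrain and 1 in forebrain. With 1 library left out, and the lone sample of its group assumed to vary like the others, the calls ranged from 2816 (without midbrain replicate 1) to 3510 between wild-type tissues and from 2810 (without midbrain replicate 2) to 4267 between knockout tissues. They ranged from 0 to 8 (without wild-type replicate 2) in midbrain, from 3 to 209 in forebrain and from 0 to 64 for the difference, the last 2 maxima without hs267-853 knockout forebrain replicate 2. Members called then ranged from 0 to 1 in forebrain and for the difference, the highest without hs267-853 knockout forebrain replicate 2 or, in forebrain, also replicate 1. The cause was not tested.

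Deviations of same-numbered replicates from their group means were nearly uncorrelated over the genes tested (-0.025 to 0.043). With 2 libraries per group this cannot exclude that same-numbered samples shared a litter or a day. With the replicate block, 5 members instead of 6 were called between wild-type tissues (Nr4a2 was lost), 7 between knockout tissues and 0 in the other comparisons, with 4501, 4515, 0, 3 and 1 genes called in all. Depth limits Pitx3, Slc6a3 and, in forebrain, Aldh1a1 and Foxa2, whose group means were near or below the floor.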

Other observations

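Markers of further cell types gave values not used above, with tests in edgeR's quasi-likelihood fit between wild-type tissues. Of the 6 mammillary and subthalamic genes, 5 were lower in forebrain past the threshold, with Barhl1 lower by -7.16 on the log2 scale. The exception, Nkx2-1, a ventral forebrain factor, was higher in forebrain, at 26.6 ± 3.49 against 12.0 ± 1.52 CPM (SD, n = 2). Of the 6 noradrenergic and sympathetic genes 2 were tested and 1 was lower in forebrain. Of 4 serotonergic genes 3 were tested and 1 was lower in forebrain.

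Of the 7 endoderm and epithelium genes 4 were higher in forebrain, among them Krt8 (14.2 ± 5.02 against 1.68 ± 0.226 CPM), and of the 8 mesenchyme genes 3 were, among them Prrx1 (120 ± 8.63 against 28.8 ± 7.12 CPM) and Twist1 (79.1 ± 20.1 against 22.2 ± 7.98 CPM). Of the 8 eye genes 3 were tested, with 1 higher and 1 lower in forebrain; Tyr and Tbx5, which mark pigment epithelium and dorsal retina, had at most 3 counts in any library. In the neural progenitor list 4 genes were higher and 3 lower in forebrain, with Hes1 higher by 1.28 and Fabp7 lower by -1.02 on the log2 scale. None of the 7 erythroid genes passed the threshold.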
